A study of Rattus norvegicus with 85 samples.

Results

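RNA editing was compared between the prefrontal cortex (PFC) and the amygdala (AMY) of adult female rats that had been stressed in adolescence. The 13 samples were those labelled PRS, F0 and P60, 6 from PFC and 7 from AMY, of the 85 samples of the series. All came from Sprague-Dawley rats labelled P60 (postnatal day 60), which the study's methods place a few days later. PRS rats (pre-reproductive stress) had gone through 7 days of unpredictable stress as adolescents, and tissue was taken 2 weeks after it ended. They are the stressed generation itself (F0) and not its offspring. Adult control samples of the same sex, strain, generation and age, with no stress procedure, were available from both regions, 5 from PFC and 5 from AMY, and their values are given beside those of PRS rats. The labels do not say which samples of the 2 regions came from the same rat, and no replicate number occurs in both regions, so the regions were compared as unpaired samples. No expression of cell type markers was measured here, so the dissection could not be checked against the tissue labels. A tissue punch holds many cell types, and the level at a site averages over all transcripts of that gene in it. A change of editing within cells and a change in which cells supply the transcript cannot be told apart.

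A-to-I editing is the deamination of adenosine to inosine in double-stranded RNA by the enzymes ADAR1 (Adar) and ADAR2 (Adarb1). Inosine is read as guanosine by ribosomes and in sequencing, so editing inside a codon can replace an amino acid (recoding), and editing in an untranslated region leaves the protein sequence as it is. In the brain, recoding is best known from subunits of glutamate receptors, the serotonin 2C receptor, a GABA-A receptor subunit and voltage-gated channels, where it tunes calcium permeability, gating, desensitisation or G protein coupling. The editing level is the percent of the reads at a site that carry G in place of A.

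Levels were measured by multiplex PCR of chosen sites followed by sequencing. The primer pairs of the coding amplicons whose sites differed between the regions are shown, since each level below is a share of the reads between such a pair. They are written 5′ to 3′ without the adaptor tails, entirely in lower case, because no base in them was edited or compared.
Grik2 (Q/R) and (Met/Val), forward: tttgggcatgagctcagaa
Grik2 (Q/R) and (Met/Val), reverse: tgtcatagccaggtttagtcc
Grik2 (Y/C) and (I/V), forward: accaaatgcctcccactatc
Grik2 (Y/C) and (I/V), reverse: tctcccctgatatctggatgt
Gria2 (R/G), forward: ttttccttacttcccgagtcc
Gria2 (R/G), reverse: catcgccacacctaaaggat
Cacna1d, forward: gctctttccgcttcttgaatt
Cacna1d, reverse: ccgcgctgtgataaagaaaa
Mcrs1, forward: gctcatgttccaggacttcat
Mcrs1, reverse: tggcagctcatgaaacagtat
Sites that share a pair were counted on the same reads and are not independent of each other.

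The reads summed over the 146 sites of the study ran from 267572 to 1013946 in PRS PFC and from 171756 to 1455755 in PRS AMY, and at most 5 of the 146 sites had fewer than 50 reads in any of these samples. No 2 of the 13 samples had the same read counts. From the library numbers that the files carry, all 6 PFC samples and 5 of the 7 AMY samples fell in 1 set of 48 consecutive numbers, and AMY replicates 162 and 14 in another. Results are therefore also given within the shared set. AMY replicate 6, which had the fewest reads, was the lowest AMY sample at 10 of the 20 sites described next.

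At 20 of 144 sites tested (13.9%), editing differed between PFC and AMY in PRS adults (two-sided exact Mann-Whitney U test, Benjamini-Hochberg adjusted p at most 0.1). It was higher in AMY at 15 sites (10.4% of those tested) and lower in AMY at 5 (3.47%). The 20 sites lie in 13 genes and at 3 intergenic positions. Kainate receptor recoding (3 Grik2 sites) was lower in AMY, whereas recoding of the AMPA receptor subunit gene Gria2 at its R/G site, of the calcium channel gene Cacna1d at 3 sites and of Mcrs1 was higher in AMY. In size, the differences in mean level spanned 0.293 to 9.95 percentage points (median 5.11). Both regions averaged under 1% at 37 of the 144 sites, of which 1 passed, beside 19 of the other 107. The regions did not overlap at 5 sites (3.47%), all among the 20, and 33 sites (22.9%) had an unadjusted exact p under 0.05. All 20 differences had the same sign within the shared set of library numbers, and the 8 nonsynonymous sites alone passed there. Nonsynonymous and other sites were adjusted separately, so passing there does not rank the sites by strength. Pum2, Selenot and Zfp612 did not pass there at an unadjusted exact Mann-Whitney U p of 0.00433, whereas Gria2 (R/G) passed at 0.0173. Without AMY replicate 16 the number of sites was 12, without AMY replicate 162 it was 13, without PFC replicate 21 it was 12 and without PFC replicate 18 it was 13.

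**Figure D1:**
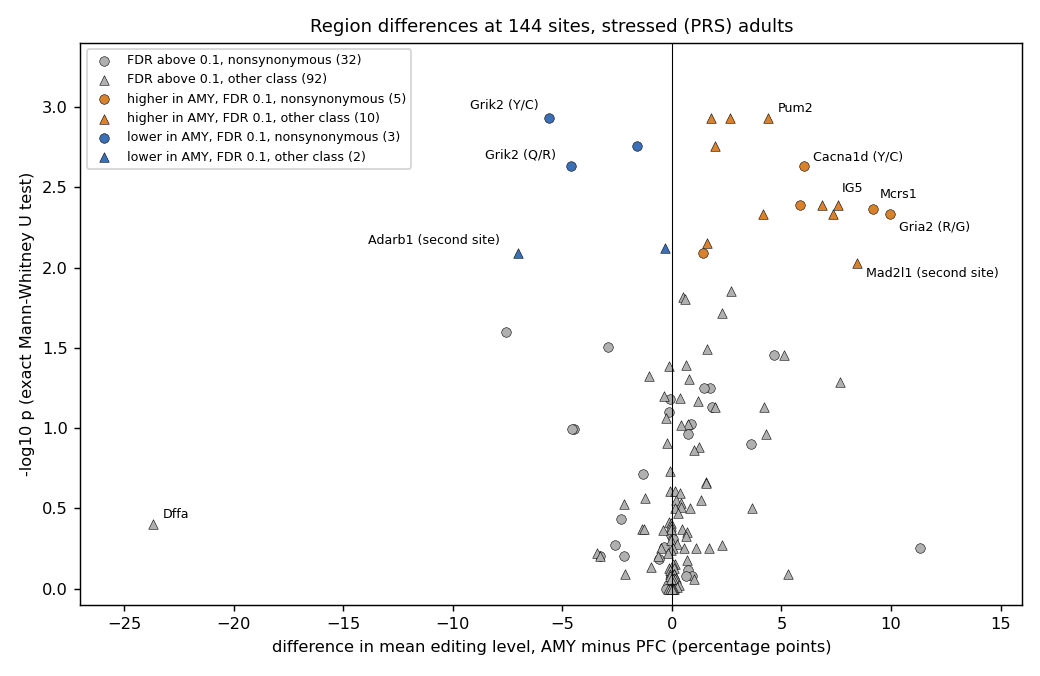
Difference in mean editing level between AMY and PFC in PRS adults (x axis, percentage points, AMY minus PFC) against -log10 of the exact Mann-Whitney U p (y axis) for 144 sites. Each point is 1 site, circles are nonsynonymous sites, triangles are other sites, and colour marks the 15 sites higher and the 5 sites lower in AMY. Dffa, the site with the lowest difference, stands far to the left with a low value on the y axis.

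Of the 7 sites tested in Grik1 and Grik2, synonymous ones included, editing was lower in AMY at 3, all recoding, and the other 4 did not pass. Grik2 encodes the kainate receptor subunit GluK2, an ionotropic glutamate receptor, and its Q/R site lies in the channel pore, where editing lowers calcium permeability. At Grik2 (Y/C), on chromosome 20 at 53408958 (rn4, minus strand, exonic, tyrosine to cysteine), the 6 PFC samples ran from 89.2% to 92.9% with a median of 91.35%. The 7 AMY samples ran from 80.7% to 88.8% with a median of 86.7%. Every AMY sample was below every PFC sample. The means were 91.5% ± 1.32 (SD, n = 6) and 85.9% ± 2.88 (SD, n = 7), a difference (AMY minus PFC) of -5.60 ± 1.22 points (SE; exact Mann-Whitney U, p = 0.00117, adjusted p = 0.0233). That p is the smallest the test allows with 6 samples against 7 when no values tie.

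At Grik2 (Q/R), at 53378633 (glutamine to arginine), PFC samples ran from 88.6% to 92.7% with a median of 90.75%, and AMY samples from 83.6% to 88.8% with a median of 86.3%. The regions overlapped only by PFC replicate 30 (88.6%) lying below AMY replicate 16 (88.8%). The mean difference was -4.62 ± 0.948 points (SE; exact Mann-Whitney U, p = 0.00233, adjusted p = 0.0233). The Met/Val site, 4 bases away at 53378637 and read on the same amplicon, was edited far less. It ran from 7.1% to 8.0% in PFC and from 5.5% to 7.1% in AMY, and AMY replicate 6 equalled the lowest PFC sample, with all other AMY samples below it. The difference there was -1.58 ± 0.255 points (SE; exact Mann-Whitney U, adjusted p = 0.0233).

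The other kainate sites did not pass. Grik2 (I/V), 13 bases from the Y/C site and on the same amplicon, had means of 84.9% ± 2.76 (SD, n = 6) in PFC and 82.6% ± 3.51 (SD, n = 7) in AMY (exact Mann-Whitney U, adjusted p = 0.636). The synonymous position Grik2 G, on the amplicon of the Q/R site, had means of 6.57% and 7.59%, against the sign of its neighbours (exact Mann-Whitney U, adjusted p = 0.409). The Q/R site of Grik1, which encodes the subunit GluK1, had means of 49.8% ± 4.80 (SD, n = 6) and 50.7% ± 4.48 (SD, n = 7). Over the 7 kainate sites the median difference was -1.58 points, beside 0.125 points over all 144 sites.

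Among the 10 sites in AMPA receptor genes, 1 passed and was higher in AMY. At Gria2 (R/G), on chromosome 2 at 172272247 (minus strand, exonic, arginine to glycine), which in GluA2 lies next to the alternatively spliced flip/flop segment and affects how fast the receptor recovers from desensitisation, PFC samples ran from 50.0% to 56.9% with a median of 53.05%. AMY samples ran from 55.6% to 69.3% with a median of 64.4%. AMY replicate 10 (55.6%) lay below PFC replicates 27 and 30, and the other 6 exceeded the whole PFC range. The means were 53.4% ± 2.58 (SD, n = 6) and 63.3% ± 5.13 (SD, n = 7), the widest gap among the 20 sites, at 9.95 ± 2.21 points (SE; exact Mann-Whitney U, p = 0.00466, adjusted p = 0.0266).

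The R/G sites of the other AMPA subunits had higher means in AMY and did not pass. Gria4 (R/G) had means of 63.3% ± 2.38 (SD, n = 6) in PFC and 68.0% ± 3.60 (SD, n = 7) in AMY (exact Mann-Whitney U, adjusted p = 0.127). It passed under the permutation test of means (adjusted p = 0.0862) and without AMY replicate 10 or PFC replicate 27 or 24 (exact Mann-Whitney U, adjusted p = 0.0945, 0.0786 and 0.0643). Gria3 (R/G) was near its upper limit in both regions, at 93.2% ± 0.502 and 94.1% ± 0.923 (exact Mann-Whitney U, adjusted p = 0.213), and passed without AMY replicate 10 (exact Mann-Whitney U, adjusted p = 0.0945). The Q/R site of Gria2, which makes AMPA receptors nearly impermeable to calcium and is edited in almost all transcripts of the brain, had a level of at least 99.6% in all 13 samples, with means of 99.85% and 99.8%. The AMPA list had a median difference of 0.258 points.

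Editing of Cacna1d was higher in AMY at all 3 of its sites. The gene encodes the L-type calcium channel Cav1.3, and the 3 sites recode its IQ domain, the segment that binds calmodulin and carries calcium-dependent inactivation. They lie within 8 bases on chromosome 16 (minus strand, exonic) and were read on the same amplicon. At the Y/C site (5405832) PFC samples ran from 16.9% to 23.5% with a median of 19.5%, and AMY samples from 22.7% to 28.4% with a median of 26.0%. PFC replicate 24, at 23.5%, was the only PFC sample above the lowest AMY sample, replicate 16. The difference was 6.03 ± 1.14 points (SE; exact Mann-Whitney U, p = 0.00233, adjusted p = 0.0233).

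At the I/M site (5405840) the range was 26.6% to 32.9% in PFC and 30.0% to 39.8% in AMY, a difference of 5.86 ± 1.66 points (SE; exact Mann-Whitney U, adjusted p = 0.0266). PFC replicate 24 was again the highest of its region, above AMY replicates 16 and 10. The Q/R site between them (5405838) was edited less, with 2.3% to 4.5% in PFC and 4.4% to 6.0% in AMY, a difference of 1.41 ± 0.405 points (SE; exact Mann-Whitney U, adjusted p = 0.0408). The other ion channel sites had higher means in AMY but did not pass. Kcnma1, the gene of the BK potassium channel, had 3.98% ± 0.376 (SD, n = 6) and 5.43% ± 1.62 (SD, n = 7) (exact Mann-Whitney U, adjusted p = 0.174), and passed without AMY replicate 6 (exact Mann-Whitney U, adjusted p = 0.0476) and in the quasi-binomial model. Kcna1, of the potassium channel Kv1.1, had 17.0% ± 1.82 and 17.8% ± 3.33. The median over the 5 ion channel sites was 1.45 points.

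Mcrs1, which encodes a nuclear protein found in chromatin remodelling complexes, was edited more in AMY. At its K/E site (chromosome 7, 138004466, minus strand, exonic, lysine to glutamate) the 6 PFC samples had levels of 33.0%, 34.3%, 35.7%, 37.1%, 37.9% and 41.1%. AMY replicates 9, 16, 5, 6 and 10 had 44.9%, 49.7%, 46.1%, 42.4% and 45.3%. None of these 5 overlapped with PFC. The difference was 9.16 ± 1.66 points (SE; exact Mann-Whitney U, p = 0.00433, adjusted p = 0.0266). That p is the smallest possible with 6 samples against 5 when no values tie. AMY replicates 162 and 14, the samples of the other set of library numbers, had only 3 and 11 reads there and were left out. Of the 11 sites tested in Blcap, Copa, Azin1, Ccni, Tm9sf1, Mcrs1, Gtf3c2 and Fabp4, Mcrs1 was the 1 that passed. Copa, a coatomer subunit of transport vesicles, had means of 11.2% ± 1.62 (SD, n = 6) and 11.0% ± 1.20 (SD, n = 7).

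**Figure D2:**
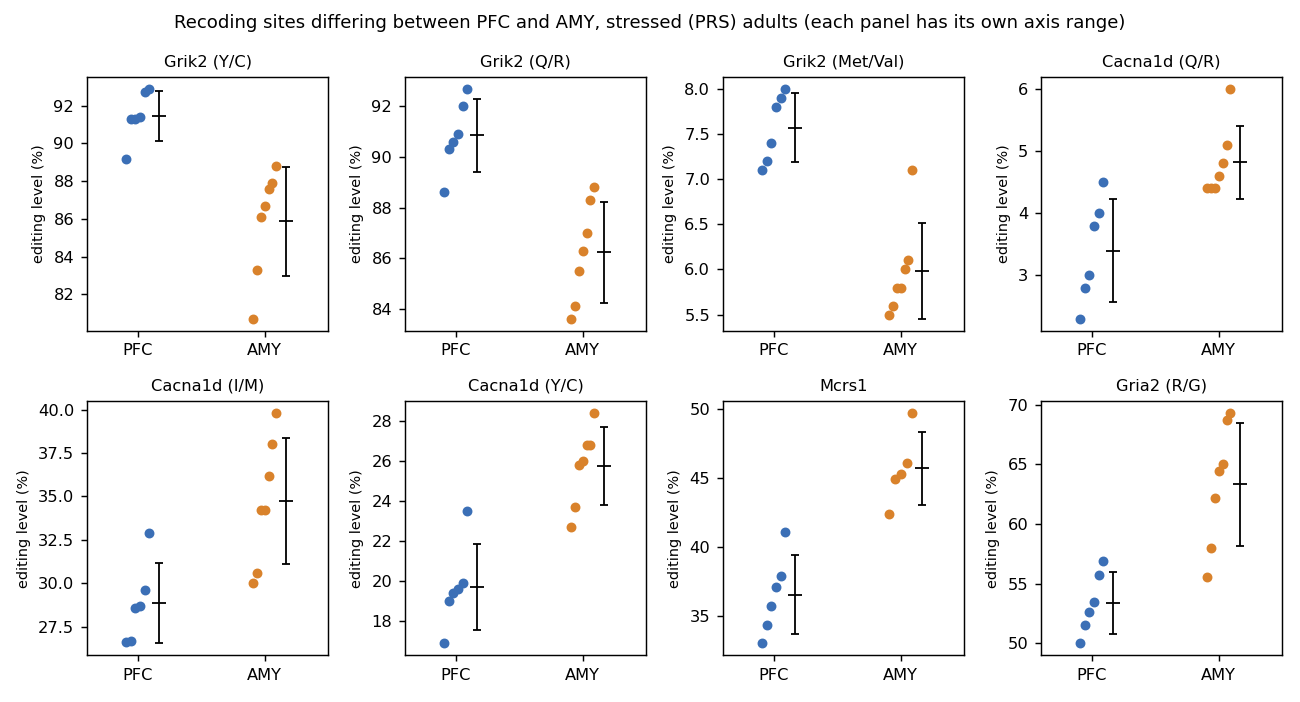
Editing level (y axis, percent of reads with G, its own range in each panel) in each PRS sample at the 8 nonsynonymous sites that differed between the regions. Points are samples, blue for PFC (n = 6) and orange for AMY (n = 7, and 5 for Mcrs1), and bars show the mean ± SD. The 3 Grik2 panels have AMY below PFC and the other 5 have AMY above PFC.

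The recoding sites of Htr2c, Gabra3 and Flna, named regardless of outcome, did not pass. Sites A to D of Htr2c recode the second intracellular loop of the serotonin 2C receptor, where editing weakens coupling to G proteins. Htr2c A had means of 93.2% ± 2.71 (SD, n = 6) in PFC and 90.3% ± 1.52 (SD, n = 7) in AMY, with an unadjusted exact Mann-Whitney U p of 0.0315 and an adjusted p of 0.126. It passed under the permutation test of means (adjusted p = 0.0725) and without AMY replicate 16 or PFC replicate 24 (exact Mann-Whitney U, adjusted p = 0.0649 and 0.0449). Htr2c B had 81.6% ± 6.61 and 77.1% ± 1.48, and Htr2c C had 35.4% ± 4.65 and 30.9% ± 2.65. Htr2c B passed without PFC replicate 24 (exact Mann-Whitney U, adjusted p = 0.0449), and Htr2c C without PFC replicate 18 (exact Mann-Whitney U, adjusted p = 0.0786) and in a quasi-binomial model of the read counts (adjusted p = 0.0246). PFC spread was wider than AMY spread at these sites, and PFC replicate 18 had the highest level of its region at sites A, B and D, at 98.3%, 91.2% and 65.2%. Htr2c D had 52.5% ± 8.30 and 50.3% ± 4.30. All 6 Htr2c sites had lower means in AMY, and 0 of 6 passed, with 2 at an unadjusted exact p under 0.05.

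Gabra3 (I/M), which recodes a GABA-A receptor alpha subunit, had means of 89.0% ± 0.826 (SD, n = 6) in PFC and 90.8% ± 2.05 (SD, n = 7) in AMY (exact Mann-Whitney U, adjusted p = 0.196), and passed without AMY replicate 10 (exact Mann-Whitney U, adjusted p = 0.0476). Flna (Q/R), in the actin crosslinker filamin A, varied widely within both regions, from 28.6% to 57.9% in PFC and from 31.0% to 52.0% in AMY. The 5 sites in Cadps and Dagla, genes of vesicle release and endocannabinoid synthesis, included none that passed. Of the 5, 3 had a lower mean in AMY, and the largest difference in size was -3.27 points, at Dagla 212734070. The highest of their differences, 1.73 points, was at the recoding site of Cadps (exact Mann-Whitney U, adjusted p = 0.174), which passed without AMY replicate 9 (exact Mann-Whitney U, adjusted p = 0.0476).

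Outside coding sequence, 7 sites in 3′ untranslated regions were higher in AMY, of 73 tested (9.59%), and none was lower. Pum2, a Pumilio protein that binds and represses mRNAs, ran from 9.1% to 11.3% in PFC with a median of 10.6%, and from 12.0% to 17.8% in AMY with a median of 14.4%. Selenot, a selenoprotein of the endoplasmic reticulum, ran from 5.6% to 7.7% and from 7.8% to 11.0%. Zfp612, a zinc finger gene, ran from 3.2% to 4.3% and from 4.5% to 6.0%. At these 3 sites no AMY sample overlapped with PFC. Their differences were 4.40 ± 0.759, 2.66 ± 0.569 and 1.77 ± 0.323 points (SE), each with an adjusted p of 0.0404 by the exact Mann-Whitney U test. Within the shared set of library numbers the adjusted p of each became 0.113 by that test. There the regions still did not overlap, and the differences were 4.24, 2.77 and 1.66 points. The unadjusted exact p of each was 0.00433, the smallest possible with 6 samples against 5 when no values tie.

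The other 4 overlapped between the regions. Mpeg1, a perforin-like gene of macrophages and microglia, ran from 17.9% to 28.6% in PFC and from 26.1% to 34.8% in AMY, and PFC replicate 24 was the 1 PFC sample inside the AMY range. Igf2, insulin-like growth factor 2, which in the adult brain is expressed mainly by choroid plexus and meninges, ran from 10.6% to 19.3% and from 18.3% to 28.5%. Both had an adjusted p of 0.0606 by the exact Mann-Whitney U test, with differences of 6.83 ± 1.85 and 7.36 ± 1.99 points (SE). They belong to a list of 4 genes expressed mainly by cells other than neurons. The others of that list, Entpd1 and Slco2a1, had means of at most 1.04% and did not pass. Slco2a1 went the other way, with means of 1.04% in PFC (n = 5) and 0% in AMY (n = 4). Its exact Mann-Whitney U p was 0.0476 unadjusted and 0.232 adjusted. The share of such cells in each sample was not measured, and its part in these levels was not tested.

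Ppfia3, a liprin scaffold of the presynaptic active zone, had means of 3.37% ± 0.650 (SD, n = 6) in PFC and 4.97% ± 1.07 (SD, n = 7) in AMY (exact Mann-Whitney U, adjusted p = 0.0771). Mad2l1, a spindle checkpoint gene, ran from 0.2% to 11.8% in PFC and from 5.2% to 22.1% in AMY at its second site by position (chromosome 4, 96385781), with an adjusted p of 0.0808 by the exact test. Its first site, 94 bases away, ran from 0.0% to 27.1% and from 0.1% to 30.3% and did not pass. Leaving out 1 sample kept the call of Mad2l1 only for AMY replicate 6 or PFC replicate 24, and that of Ppfia3 only for these or PFC replicate 27 (adjusted p up to 0.164 by the exact test). Mpeg1 and Igf2 lost their calls without AMY replicate 16 or 162 or PFC replicate 21, 18 or 30, and Igf2 also without AMY replicate 9 (adjusted p up to 0.131 by the exact test). Ankrd28, a phosphatase subunit gene with 20 clustered sites in its 3′ untranslated region, had 16 sites with a higher mean in AMY and 0 that passed, with 2 at an unadjusted exact p under 0.05. Without PFC replicate 27 or 33, 2 of its positions passed, and without AMY replicate 6, 1 did (adjusted p from 0.0657 to 0.0938 by the exact test).

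Adarb1, the gene of ADAR2, was edited less in AMY at 1 of its 4 tested positions. ADAR2 edits its own pre-mRNA, which shifts a splice site. The positions are annotated in the files as 5′ untranslated region, on chromosome 20 of rn4. At 11709485, the second by position, PFC samples ran from 27.7% to 34.8% with a median of 31.8%, and AMY samples from 19.2% to 30.1% with a median of 23.2%. AMY replicates 9 and 5, at 30.1% and 28.2%, lay within the PFC range, and the others were below every PFC sample. The difference was -7.01 ± 1.91 points (SE; exact Mann-Whitney U, adjusted p = 0.0771), and leaving out 1 sample kept its call only for AMY replicate 9 or 5 or PFC replicate 33 or 24 (adjusted p up to 0.164).

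The base next to it, 11709486, was edited at a much higher level and in the other direction. Its means were 85.7% ± 1.70 (SD, n = 6) in PFC and 88.4% ± 1.47 (SD, n = 7) in AMY, which did not pass (exact Mann-Whitney U, adjusted p = 0.109) but did under the permutation test of means (adjusted p = 0.0707) and without AMY replicate 5 (exact Mann-Whitney U, adjusted p = 0.0563). The position 11709490 had means of 2.98% and 4.57% (exact Mann-Whitney U, adjusted p = 0.196) and passed without PFC replicate 27 (exact Mann-Whitney U, adjusted p = 0.0750), and 11709472 had 37.2% and 35.0%. The other site in a 5′ untranslated region that passed was Pa2g4, a growth-regulating gene, at its second position (chromosome 7, 1854034). Its level ran from 0.4% to 1.0% in PFC and from 0.1% to 0.5% in AMY (exact Mann-Whitney U, adjusted p = 0.0771). Levels are deposited in steps of 0.1 points, so this difference of -0.293 points is only a few steps, and leaving out 1 sample kept the call only for AMY replicate 14 or PFC replicate 27 or 33 (adjusted p up to 0.164).

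At 3 of 7 intergenic positions editing was higher in AMY, and the other 4 did not pass. IG1, on chromosome 7 at 138469220, ran from 4.5% to 6.3% in PFC and from 6.3% to 8.9% in AMY, touching at PFC replicate 21 and AMY replicate 10. IG5, on chromosome 5 at 145407422, ran from 1.9% to 12.6% and from 10.3% to 20.1%. IG6, on chromosome 6 at 93111867, ran from 3.3% to 9.4% and from 8.2% to 16.1%. Their differences were 1.95 ± 0.479, 7.58 ± 2.07 and 4.14 ± 1.27 points (SE), with adjusted p of 0.0455, 0.0606 and 0.0606 by the exact Mann-Whitney U test. Without AMY replicate 16 all 3 calls were lost, IG1 by a small margin (adjusted p = 0.10005 by the exact test). IG5 was also lost without AMY replicate 9 or PFC replicate 21 or 18, and IG6 without AMY replicate 162 or PFC replicate 21, 18 or 30 (adjusted p up to 0.131 by the exact test). The neighbouring bases IG4 and IG7 did not pass. IG4 had means of 18.2% ± 9.83 (SD, n = 6) and 20.5% ± 7.45 (SD, n = 7), and IG7 of 0.850% and 1.27%.

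**Figure D3:**
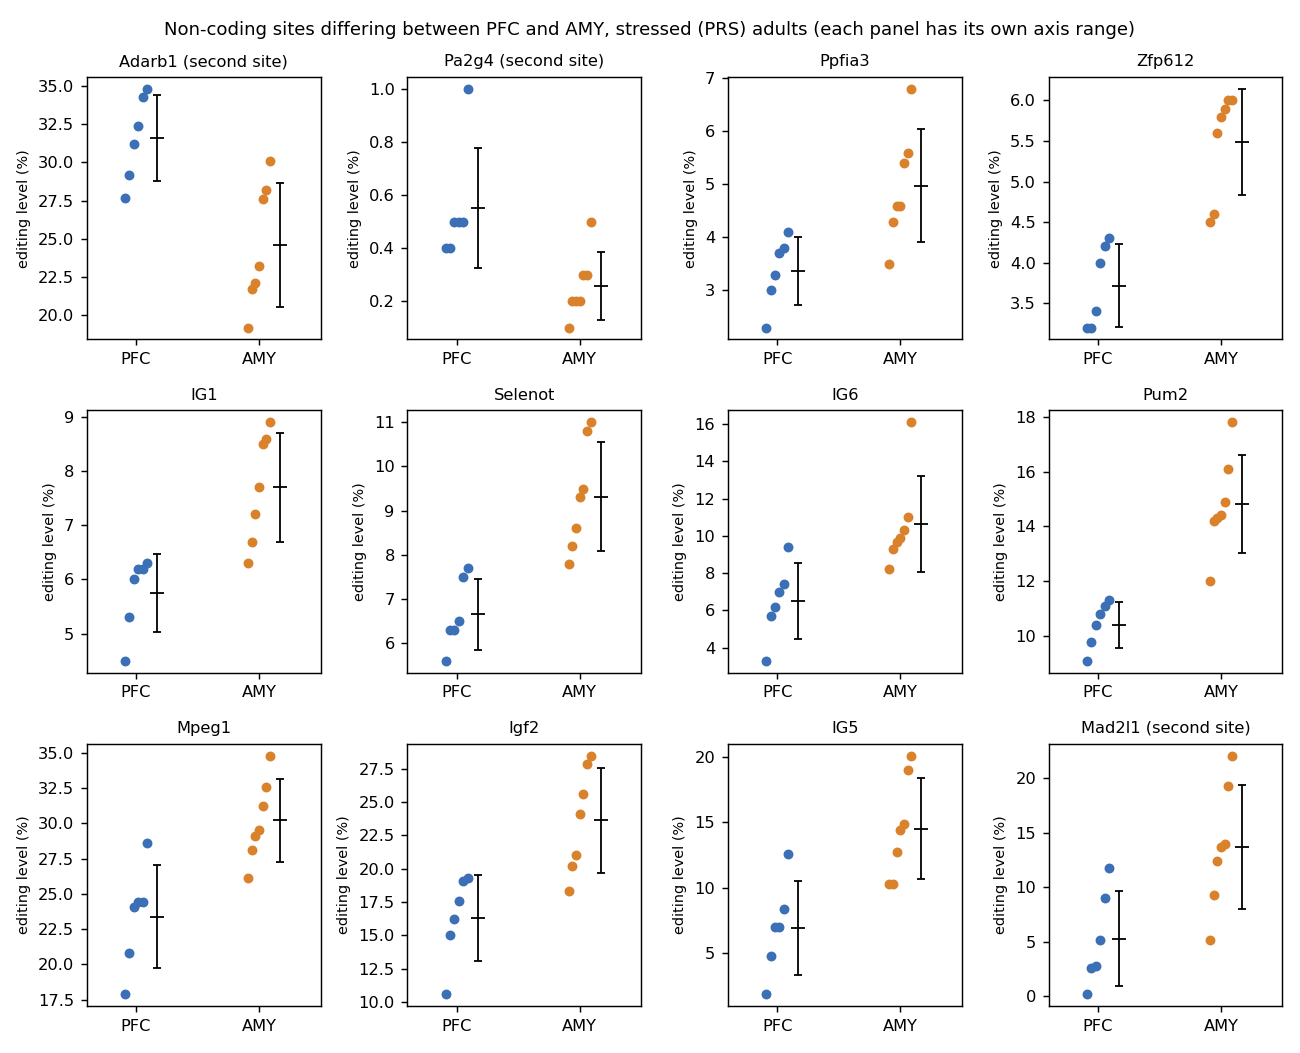
Editing level (y axis, percent of reads with G, its own range in each panel) in each PRS sample at the 12 sites outside coding sequence that differed between the regions. Points are samples, blue for PFC (n = 6) and orange for AMY (n = 7), and bars show the mean ± SD. Adarb1 and Pa2g4 have AMY below PFC, and the other 10 panels have AMY above PFC.

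By class, 8 of 40 nonsynonymous sites passed (20%), 5 higher and 3 lower in AMY, and 0 of 16 synonymous sites passed, with 0 at an unadjusted exact p under 0.05. Averaged over the 137 sites with 50 reads in all 13 samples, editing was 13.9% ± 0.394 (SD, n = 6) in PFC and 14.6% ± 0.596 (SD, n = 7) in AMY. PFC samples ran from 13.2% to 14.2% and AMY samples from 13.8% to 15.4%, with 4 of the 7 AMY samples past the top of the PFC range. The difference of 0.661 points had p = 0.0420 in a two-sided exact permutation test. It held without AMY replicate 6, 162 or 10 (lowest p = 0.0281) and not without any 1 of the other 10 samples (highest exact permutation p = 0.223, without AMY replicate 16). The 39 nonsynonymous sites among them had means of 31.9% ± 0.785 (SD, n = 6) and 32.1% ± 1.34 (SD, n = 7). Their differences ran both ways, and the exact permutation p was 0.791. They include Blcap 148267329, which had the highest difference of all sites tested, 11.3 points, without passing. There AMY replicate 5 had 82.1% and the other AMY samples at most 4.3%, which raises the AMY mean. The 69 sites in 3′ untranslated regions had means of 5.86% ± 0.580 and 6.85% ± 0.771 (exact permutation p = 0.0297).

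**Figure D4:**
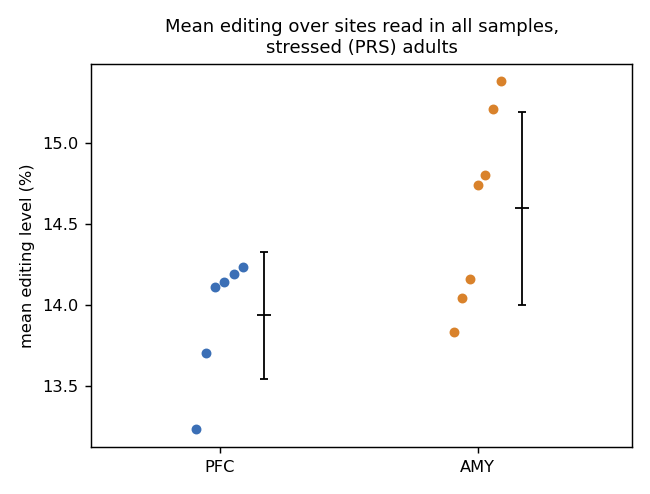
Mean editing level (y axis, percent, not starting at 0) over the 137 sites with at least 50 reads in all 13 PRS samples. Points are samples, blue for PFC (n = 6) and orange for AMY (n = 7), and bars show the mean ± SD. PFC samples lie between 13.2% and 14.2%, and 4 AMY samples lie above all of them.

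The same difference was then read in the control adults, which share no sample with the PRS groups. Their regions were split over the library numbers in a similar way. All 5 control PFC samples and 3 of the 5 control AMY samples fell in the shared set, and control AMY replicates 8 and 4 in the other. Median reads, summed over the sites of the study, were 320075 in control PFC and 1885251 in control AMY. The part of either imbalance in the control differences was not tested. On its own, the control comparison of 5 samples against 5 called 0 of 140 sites (0%) by the exact Mann-Whitney U test. In it, 18 sites (12.9%) had an unadjusted exact p under 0.05, and the smallest adjusted p was 0.106. With 5 samples against 5 that test allows no p below 0.00794. The count of 0 therefore does not show that the regions were alike in controls. Of the 20 sites, 19 had enough reads in both control regions, and at 18 of these the control means differed in the same direction, beside 72 of the 119 sites that had not passed and 90 of all 138 (65.2%). The exception was IG5. Mcrs1 could not be compared, because only 2 control AMY samples had 50 reads there. Grik2 (Q/R) had control means of 90.4% ± 1.40 (SD, n = 5) in PFC and 86.0% ± 1.88 (SD, n = 5) in AMY, a difference of -4.40 points beside -4.62 in PRS rats. Gria2 (R/G) had 55.1% ± 0.952 and 65.2% ± 6.21, a difference of 10.1 points beside 9.95. Other sites matched less closely in size. The control difference was smaller at Adarb1 11709485 (-2.72 points beside -7.01) and Grik2 (Met/Val) (-0.74 beside -1.58). It was larger at Selenot (5 points beside 2.66) and Mpeg1 (10.28 beside 6.83). Control regions did not overlap at 7 of these 19 sites, Pum2, Selenot, IG1, Grik2 (Q/R), Cacna1d (I/M), Mpeg1 and Gria2 (R/G), beside 9 of 138 sites (6.52%) that could be compared in controls.

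The size of the region difference was tested between PRS and control rats by exact permutation of treatment within each region, over 138 sites. No site passed (0%), and 7 sites (5.07%) had an unadjusted exact permutation p under 0.05. The p of the difference was 0.508 at Grik2 (Y/C), 0.873 at the Y/C site of Cacna1d, 0.475 at Pum2 and 0.129 at Adarb1 11709485 (all by exact permutation). Of the 20 sites, IG5 alone had an unadjusted p under 0.05 (exact permutation p = 0.0428, adjusted p = 0.848). Its control PFC samples had 12.0%, 53.0%, 5.5%, 13.2% and 0.0%, and its control AMY samples ran from 5.3% to 14.0%, and without the PFC sample at 53.0% (replicate 20) the control difference went from -7.14 to 1.93 points.

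Htr2c A was the other named site with a low unadjusted p. Its AMY minus PFC difference was -2.93 points in PRS rats and 2.10 points in controls (exact permutation p = 0.0169, adjusted p = 0.414). Control PFC samples had 91.5%, 90.4%, 82.9%, 91.5% and 89.2%, and control AMY samples ran from 88.4% to 93.0%. Without the control PFC sample at 82.9% (replicate 32) the difference between the treatments went from -5.03 to -3.48 points. Averaged over the 114 sites measured in all 23 adult samples, AMY minus PFC was 0.651 points in PRS rats and 1.16 points in controls. These did not differ past the threshold (exact permutation p = 0.250). Control PFC replicate 29 had the lowest average of the 23 samples (14.5%) and the fewest reads (149296, with 11 sites under 50). At Htr2c B it had 99.4%, beside 77.9% to 84% in the other control PFC samples. At Ankrd28 7168464 it had 99.3%, beside 14.4% to 25.9%. At Gria2 (R/G) it had 54.6%, within their range, but at other sites of the 20 it lay outside. It had 81.6% at Grik2 (Y/C), beside 88.9% to 93%, and 3.4% at Grik2 (Met/Val), beside 7.1% to 8.4%. At the Y/C site of Cacna1d it had 30.5%, beside 18.7% to 21.6%, and at IG1 0.3%, beside 4.1% to 5.8%. The control differences and the p of the difference at these sites include this sample.

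**Figure D5:**
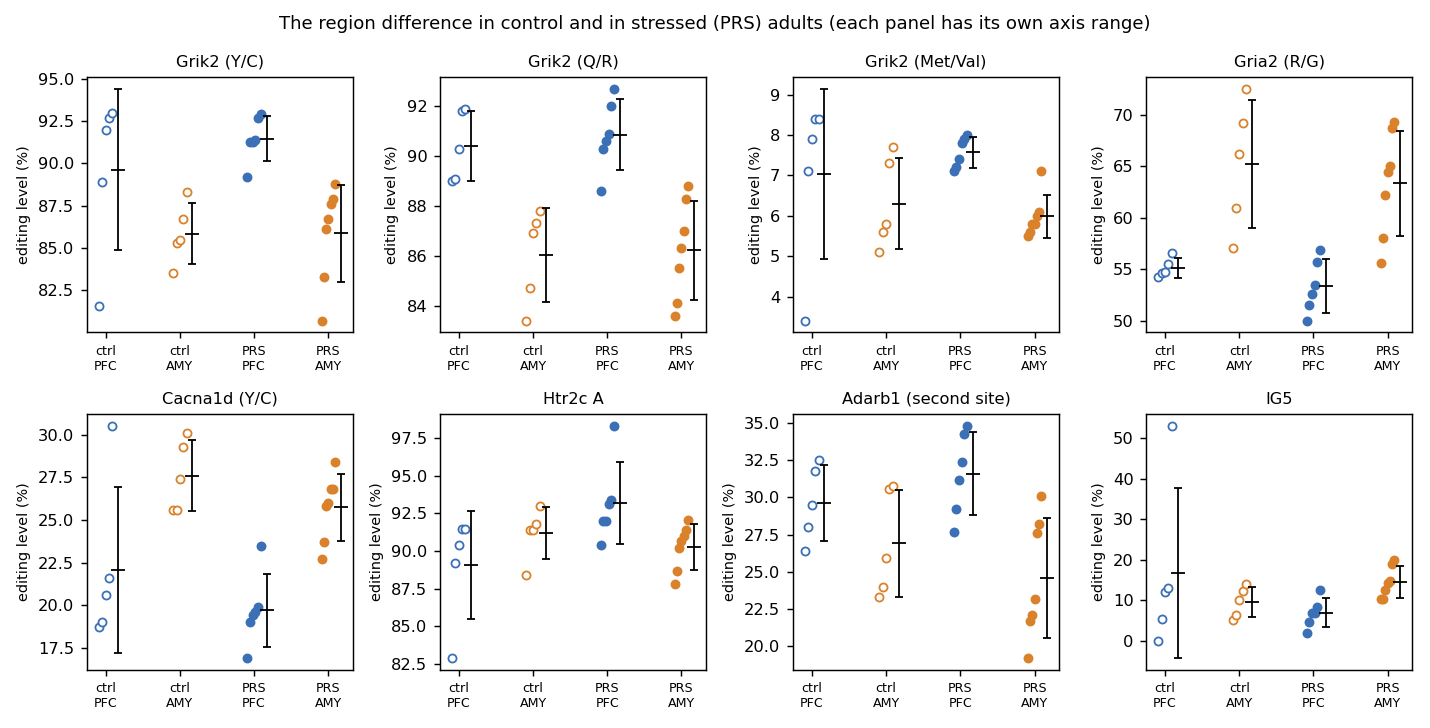
Editing level (y axis, percent of reads with G, its own range in each panel) at 8 sites in control (ctrl, open points) and PRS (filled points) adults, blue for PFC and orange for AMY. Points are samples (n = 5 per control group, 6 for PRS PFC and 7 for PRS AMY), and bars show the mean ± SD. In the panel of IG5, 1 control PFC sample stands at 53.0%, and in that of Htr2c A, 1 control PFC sample stands at 82.9%.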

How the data were processed

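The authors amplified the sites with primer pools on a microfluidic array, sequenced paired 76-base reads and, per the paper's methods, mapped combined reads with BWA to rn4, allowing 9 mismatches. The deposited files list 179 positions with counts, total and edited reads per site, and the editing level as a fraction to 3 decimals. The authors' minimum of 50 reads was applied here, to the 146 sites of the study, with at least 3 samples a region. Cdh22 and Nova1 66199286 missed it. Reads spanning several sites are counted at each, and counting intervals cover counting error only. At the 20 called sites the fewest reads in a sample over the minimum were 549, at Ppfia3. With that count a 95% Wilson interval is ± 4.17 points at a level near 50%, far above the levels of Ppfia3.

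Sites were tested with the Mann-Whitney U test over all 1716 splits, adjusted separately over 40 nonsynonymous and 104 other sites (Python 3.11.15, scipy 1.17.1). The test was checked on simulated data with shifts larger than any difference at the called sites. That check does not cover smaller differences. Samples are taken as separate rats, which the labels do not state. Otherwise p-values measure technical spread. Members, lists and named sites (each passing nonsynonymous site, the 20 other passing sites with the largest difference, passing sites against the majority, and 16 sites fixed by name, of which 1 is not reported here) were chosen with earlier results of these data known.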

Additional observations from a re-analysis of the deposited data

Results flagged for a closer look

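In 117 sets of samples of 1 region at 1 site, 10 had a sample that stood apart from the rest of its region by Dixon's test. Chance gives about 1 in 20 for independent, normally distributed values, which these levels need not be. The count is therefore not read as an excess. Of the sites that differed between the regions, AMY replicate 6 stood apart at Grik2 (Met/Val) with 7.1%, AMY replicate 16 at IG6 with 16.1%, and PFC replicate 30 at Pa2g4 1854034 with 1.0%. AMY replicate 16 also stood apart at IG7, the base next to IG6, with 3.2%. Among sites that did not pass, AMY replicate 5 had 82.1% at Blcap 148267329, where the other AMY samples had at most 4.3%, and PFC replicate 24 had 5.6% there. AMY replicate 6 had 9.6% at Blcap 148267359. AMY replicate 162 had 24.3% at Son 31628545, where the others had at most 0.8%. PFC replicate 21 had 82.4% at Adarb1 11709486, and AMY replicate 14 had 32.8% at Ankrd28 7168727.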

How the results depend on the processing

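No paired analysis was possible because the regions share no replicate numbers. All 20 sites kept their direction in all 478 values computed for them under the alternatives, with 389 keeping the call and 89 losing it. The number of sites was 8 with the asymptotic Mann-Whitney U test, 8 within the shared set of library numbers and 12 at an FDR of 0.05. It was 28 in the quasi-binomial model of the counts (9 gained, Kcnma1, Htr2c C and Adarb1 11709490 among them), 23 with all sites adjusted together (3 gained), 22 with the permutation test of means (Adarb1 11709486, Gria4 (R/G) and Htr2c A gained), 22 among sites averaging 1% or more in either region, 21 with levels recomputed from the counts, and from 12 to 24 on leaving out 1 sample. In all, 24 sites that had not passed did so under at least 1 alternative. All 13 leave-one-out fits kept 11 sites: the 8 nonsynonymous ones, Pum2, Selenot and Zfp612. Counting from 1 read lost Mcrs1 (exact test, adjusted p = 0.353, a difference of 3.47 points), where 2 AMY samples with 3 and 11 reads then enter. No sample was low at over 30% of sites, so that alternative left out none.

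The difference in mean editing was 0.0980 on the logit scale (exact permutation p = 0.159), 0.187 points at nonsynonymous sites, 0.787 points with 1 site per gene (p = 0.103) and 0.775 points within the shared set (p = 0.0541), and from 0.451 to 0.789 points on leaving out 1 sample. The comparison of PRS with control rats called from 0 to 1 sites on leaving out 1 sample: Igf1 without control PFC replicate 20 and Hist2h2ab without control PFC replicate 29. The sites that reversed had not passed. Gria2 (Q/R) went to 0.0494 points in the quasi-binomial model and 0.0141 from recomputed levels. On leaving out 1 sample Gria2 (Q/R) ran from -0.0333 to 0.0167, Kcna1 from -0.133 to 1.53, Grik1 from -0.700 to 2.18, Flna from -2.45 to 3.41 and Htr2c D from -4.29 to 0.374 points. The cause was not tested.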

Other observations

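Dffa, at an intronic position, had the lowest difference of all 144 sites, -23.7 points, without passing (exact Mann-Whitney U, adjusted p = 0.742). Its levels ran from 0.4% to 97.5% within PFC alone and from 0.2% to 43.3% in AMY. Of the 33 other listed positions, 2 in Htr2c reached the read minimum in both regions, and their levels were 0.0% in all 13 samples.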
